A study of Homo sapiens with 20 samples.

Results

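The genes described here are 10 feedback inhibitors of mitogen-activated protein kinase (MAP kinase) signaling, DUSP1, DUSP2, DUSP4, DUSP5, DUSP6, DUSP10, DUSP16, SPRY1, SPRY2 and SPRED2. They were chosen by gene name, and each name matched 1 of the 60719 genes in the table. All 10 passed the filter on low counts, which left 16327 genes for testing.

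T cell receptor engagement activates RAS, which drives the RAF, MEK and ERK kinases. Active ERK induces early genes, among them inhibitors of its own cascade. The dual-specificity phosphatases (DUSPs) described here remove phosphate from the activation loop of MAP kinases. DUSP1, DUSP2, DUSP4 and DUSP5 act mainly in the nucleus, DUSP5 and DUSP6 are selective for ERK, and DUSP10 and DUSP16 act mainly on JNK and p38. Sprouty proteins (SPRY1 and SPRY2) and the related SPRED2 act upstream, between receptors and RAF.

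RNA sequencing was performed on WT Jurkat T lymphoblasts, a human leukemia cell line, and on JinB8, a Jurkat somatic mutant line that lacks surface CD47 (CD47- cells). CD47 is the receptor through which thrombospondin-1 (TSP1) limits T cell activation, and the design asks how its loss and its ligand alter the response to activation. Cells of each line were plated in serum-free medium untreated for 1 h, or with 1 μg/ml TSP1, with immobilized anti-CD3 plus anti-CD28 (4 μg/ml anti-CD28), or with both, for 1, 3 and 6 h. Each line and condition is 1 library, which gives 10 libraries per line. The single untreated library of each line was taken at 1 h, so the unactivated libraries at 3 and 6 h all received TSP1. Time in culture and the day or handling of a harvest cannot be told apart. JinB8 is 1 mutant line, so loss of CD47 and other differences between the lines cannot be told apart. Libraries of a line at other times, or with and without TSP1, served as replicates. Nothing states that they came from separate cultures, so the p-values measure only the spread between these libraries.

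Library totals ranged from 16107921 to 31737616 expected counts. Levels are given as CPM, counts scaled to a common library total after TMM adjustment, and 3 counts correspond to 0.0979 to 0.156 CPM depending on the library. As a check of the labels, CD47 mRNA averaged 317 ± 42.1 CPM over the WT libraries. The CD47- libraries averaged 147 ± 12.6 CPM (SD, n = 10 per line), below WT in 10 of 10 pairs matched for treatment and time. All 10 T cell markers examined were above 1 CPM in every library. The B cell marker MS4A1 was below 1 CPM in every library, while the summed level of the B cell markers examined ranged from 35.6 to 55.9 CPM in WT and from 5.71 to 13.5 CPM in CD47- cells, mostly CD79A (means of 42.2 and 6.75 CPM). The summed level of 4 fibroblast markers ranged from 1.89 to 6.69 CPM in WT and from 7.70 to 12.3 CPM in CD47- cells. Means were higher in CD47- than in WT libraries for PDGFRB (5.83 against 0.914 CPM) and COL1A1 (4.31 against 1.96 CPM). They were lower for COL1A2 (0.289 against 1.21 CPM) and DCN (0.116 against 0.270 CPM). The part of these markers in the line differences was not tested. The CD47- library treated with CD3+CD28+TSP1 for 3 h stands apart. Its closest library correlated with it at r = 0.982 across genes, against 0.993 or more for the other 19. Where leaving it out changed a call described here or moved its value by over 1.5 times, that is stated with the result. Single values were checked in this way for members that passed and for most activation comparisons of DUSP2 and DUSP5.

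Proximal promoters are shown for 3 members that represent the responses described below. DUSP2 responded most to activation in WT cells, SPRY2 correlated most with EGR3 across libraries, and DUSP1 fell from 1 to 6 h in WT cells, with no activation call in either line. Each window is 300 bases of the GRCh38.p14 assembly from RefSeq, from 250 bases before the transcription start to 50 after it, written 5′ to 3′ on the strand of the gene. Capitals mark matches on either strand to the CRE core TGACGT, the EGR motif GCGNGGGCG or the E-box CACGTG. The DUSP2 window is chr2:96145391-96145690, the SPRY2 window chr13:80341077-80341376 and the DUSP1 window chr5:172771146-172771445, all on the minus strand.
DUSP2: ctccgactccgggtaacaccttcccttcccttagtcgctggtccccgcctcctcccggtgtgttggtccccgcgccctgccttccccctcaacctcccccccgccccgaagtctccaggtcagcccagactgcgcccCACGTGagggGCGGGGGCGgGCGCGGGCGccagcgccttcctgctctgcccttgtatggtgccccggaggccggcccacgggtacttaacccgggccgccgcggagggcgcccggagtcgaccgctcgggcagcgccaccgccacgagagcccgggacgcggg
SPRY2: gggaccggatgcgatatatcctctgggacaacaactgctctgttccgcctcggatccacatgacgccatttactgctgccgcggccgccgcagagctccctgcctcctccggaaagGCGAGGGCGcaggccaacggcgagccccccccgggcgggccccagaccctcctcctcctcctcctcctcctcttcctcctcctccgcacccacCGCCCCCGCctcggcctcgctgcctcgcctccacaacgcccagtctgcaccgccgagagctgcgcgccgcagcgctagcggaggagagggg
DUSP1: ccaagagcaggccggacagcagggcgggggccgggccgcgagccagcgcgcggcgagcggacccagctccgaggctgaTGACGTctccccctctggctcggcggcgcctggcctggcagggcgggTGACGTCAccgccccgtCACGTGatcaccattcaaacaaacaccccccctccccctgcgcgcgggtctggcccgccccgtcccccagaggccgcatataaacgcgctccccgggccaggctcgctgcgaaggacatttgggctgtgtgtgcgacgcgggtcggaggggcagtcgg

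Promoter windows of 8 of the 10 members were searched, and DUSP4 and DUSP5 were not. Positions are those of the first matched base, counted from the start site, with 1 as the first transcribed base. In DUSP2 the EGR motif was found at -103 and -93, beside an E-box at -113. The SPRY2 window held the EGR motif at -134 and, on the opposite strand, at -41. The DUSP1 window held the CRE core at -172, at -125 and on the opposite strand at -123, where the last 2 overlap, and an E-box at -108. DUSP16 had 1 EGR match at -111 and SPRED2 had 1 CRE core match at 30. The windows of DUSP6, DUSP10 and SPRY1 held no match to these motifs, to AP-1 (TGANTCA) or to the ETS motif CCGGAAG. Among all 35116 promoter windows of this length, 9.43% held the EGR motif, 7.98% the CRE core, 7.26% the E-box, 7.71% AP-1 and 10.3% the ETS motif, so a match is a description and not a site of binding.

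Levels of the members spanned a wide range. On the scale of mean CPM per kb of the main transcript, DUSP2 was highest in both lines (88.1 ± 68.8 in WT and 41.6 ± 15.8 in CD47- cells, SD, n = 10). DUSP5 followed in WT cells at 32.5 ± 30.1 per kb, ahead of DUSP1 at 10.2 ± 2.97 per kb. In CD47- cells DUSP1 was at 14.9 ± 2.73 per kb and DUSP5 at 12.7 ± 6.00 per kb. The ranges of these neighbours overlapped in both lines, and their means pool times at which the level of DUSP5 differed. SPRED2, SPRY2, DUSP10 and SPRY1 lay between 2.57 and 6.81 per kb in WT and between 3.11 and 5.85 per kb in CD47- cells, and neighbours in rank among these 4 overlapped. SPRY1 did not overlap DUSP6, the next below it in CD47- cells. DUSP16 and DUSP6 were low, at 1.26 and 0.676 per kb in WT and at 0.520 and 1.03 per kb in CD47- cells. DUSP4 was lowest in both lines (0.118 and 0.0592 per kb) and did not overlap the member ranked above it. Its counts ranged from 0 to 39 per WT library and from 4 to 13 per CD47- library, so its fold changes rest on few counts.

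**Figure D1:**
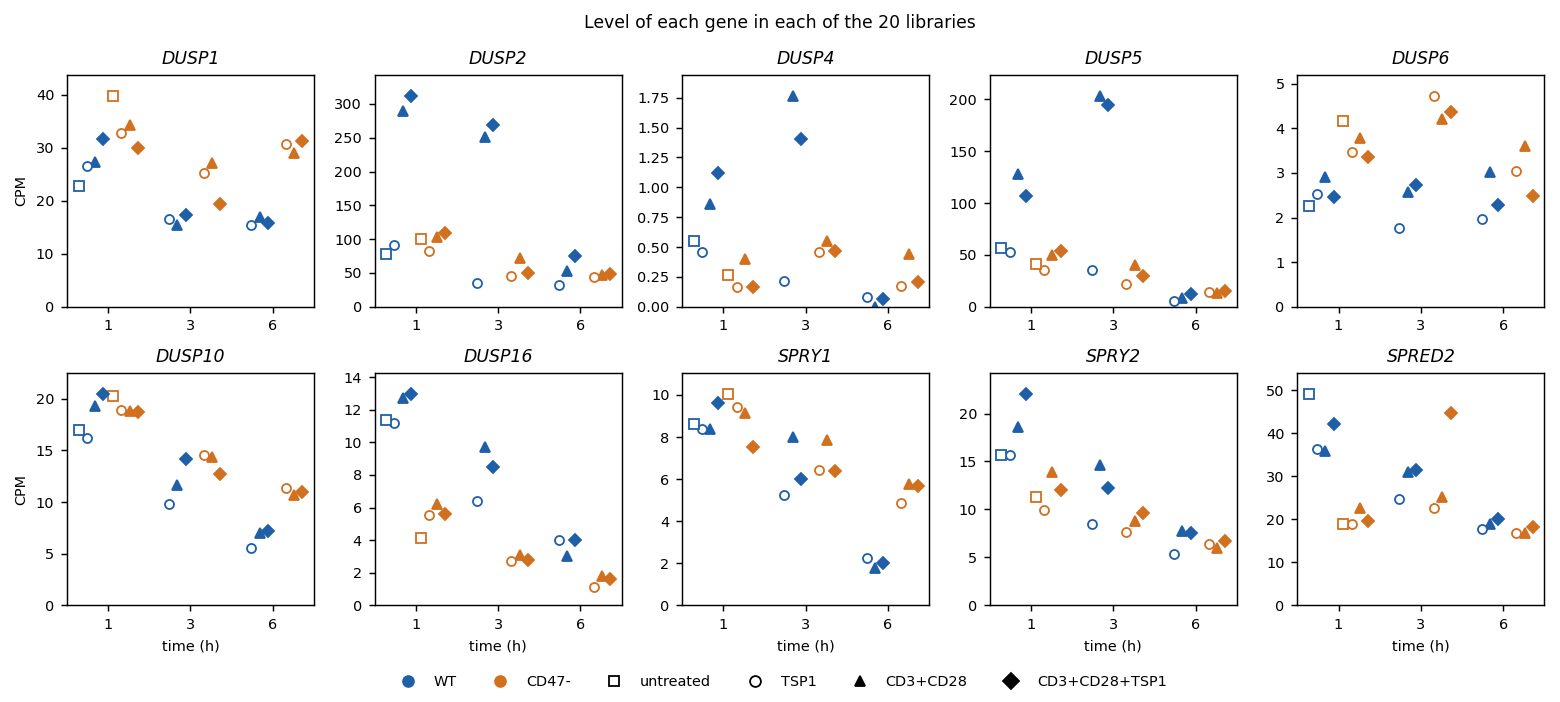
Level of each member in each library, in CPM on a linear axis that starts at 0 in each panel, grouped by time in h, with WT in blue and CD47- in orange, untreated as squares, TSP1 as circles, CD3+CD28 as triangles and CD3+CD28+TSP1 as diamonds. The WT activated libraries of DUSP2 reach 312 CPM at 1 h and those of DUSP5 reach 204 CPM at 3 h, while no CD47- library exceeds 109 CPM for DUSP2 or 53.6 CPM for DUSP5.

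The first comparison asks which feedback genes respond to engagement of CD3 and CD28 in each line. DUSP2, a nuclear phosphatase of ERK and p38 that is characteristic of activated leukocytes, and DUSP5, a nuclear phosphatase selective for ERK, were the members that rose. In WT cells at 1 h, DUSP2 mRNA was 77.8 CPM untreated and 91.1 CPM with TSP1 alone, and it was 289 CPM with CD3+CD28 and 312 CPM with CD3+CD28+TSP1. At 3 h the WT values were 34.7 CPM with TSP1 alone, 251 CPM with CD3+CD28 and 269 CPM with CD3+CD28+TSP1. By 6 h they were 32.4, 53.2 and 74.5 CPM in the same order. Activated and unactivated WT libraries therefore did not overlap at any time, and the gap was widest at 3 h. The log2 fold change in WT cells was 1.83 ± 0.18 (SE) at 1 h (3.56-fold, adjusted p = 0.000533) and 2.91 ± 0.24 at 3 h (adjusted p = 0.000172). At 6 h it was 0.98 ± 0.22 (adjusted p = 1), where edgeR called 0% of genes in WT cells (319 at an unadjusted p under 0.05, 3 by DESeq2 and 0 by limma voom). DUSP2 passed there with DESeq2 (0.98, adjusted p = 0.0303) and without a filter (0.99, adjusted p = 9.59e-07). These fits compared 2 activated with 2 unactivated libraries at 1 h and 2 with 1 at 3 and 6 h. A single library adds nothing to the spread, which came from the groups with 2.

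DUSP5 in WT cells at 1 h was 56.6 CPM untreated, 52.6 CPM with TSP1 alone, 128 CPM with CD3+CD28 and 107 CPM with CD3+CD28+TSP1. At 3 h it was 35.7 CPM with TSP1 alone, 204 CPM with CD3+CD28 and 195 CPM with CD3+CD28+TSP1. At 6 h it had fallen to 5.31, 8.57 and 12.1 CPM in that order. Activated libraries were again above unactivated ones at each time. The log2 fold change was 1.10 ± 0.16 at 1 h (2.15-fold, adjusted p = 0.0275), 2.48 ± 0.22 at 3 h (5.58-fold, adjusted p = 0.000200) and 0.97 ± 0.24 at 6 h (adjusted p = 1). The call at 1 h was lost when any 1 of 10 libraries was left out, 6 of them WT (untreated at 1 h, TSP1 at 1 h, and CD3+CD28 and CD3+CD28+TSP1 at 1 and 3 h) and 4 CD47- (CD3+CD28 and CD3+CD28+TSP1 at 1 and 6 h). Its log2 fold change stayed between 0.96 and 1.24. At 6 h DUSP5 passed without a filter (0.98). The 3 h calls of both genes passed under every alternative tried. None could leave out the single unactivated WT library at 3 h, on which these fold changes rest.

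Across all genes, 0.0429% passed as higher with activation in WT cells at 1 h (7 genes) and 0.361% at 3 h (59 genes), so 2 of 10 members at each time stand against few calls. No member other than DUSP2 and DUSP5 passed. DUSP4, a nuclear phosphatase of ERK and JNK that is itself an ERK target, was 0.216 CPM with TSP1 alone at 3 h in WT cells, and it was 1.77 CPM with CD3+CD28 and 1.41 CPM with CD3+CD28+TSP1. These values are 5, 39 and 33 counts, with a log2 fold change of 2.84 ± 0.68 (adjusted p = 0.144). SPRY2, an ERK-induced inhibitor of RAS and RAF activation, was 8.48 CPM with TSP1 alone at 3 h, 14.6 CPM with CD3+CD28 and 12.3 CPM with CD3+CD28+TSP1 (log2 fold change 0.66 ± 0.18, adjusted p = 0.260). The log2 fold changes of the other 6 members at 3 h in WT cells lay between -0.01 (DUSP1) and 0.58 (DUSP6).

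In CD47- cells activated and unactivated levels of DUSP2 and DUSP5 lay closer together. At 1 h, DUSP2 was 100.5 CPM untreated, 82.5 CPM with TSP1 alone, 103 CPM with CD3+CD28 and 109 CPM with CD3+CD28+TSP1. At 3 h it was 45.6 CPM with TSP1 alone, 71.5 CPM with CD3+CD28 and 49.6 CPM with CD3+CD28+TSP1, and at 6 h all 3 libraries lay between 43.8 and 48.2 CPM. The unactivated level of DUSP2 at 1 h was thus in the same range in both lines, and only the WT libraries rose far above it on activation. DUSP5 in CD47- cells at 1 h was 41.0, 35.9, 49.9 and 53.6 CPM in the same order of treatments. It was 21.6, 40.0 and 29.3 CPM at 3 h and between 13.5 and 15.3 CPM at 6 h. The log2 fold change at 3 h was 0.41 ± 0.22 for DUSP2 and 0.68 ± 0.21 for DUSP5, and neither passed. Without the library that stands apart these were 0.65 and 0.89 (adjusted p = 0.998 for both). The edgeR test called 0% of genes, members included, in CD47- cells at 1, 3 and 6 h. At an unadjusted p under 0.05 there were 185, 1503 and 250 genes. DESeq2 called 1, 2 and 1 genes, and limma voom called 0 at each time. Leaving out the CD47- CD3+CD28 library at 3 h, which leaves the library that stands apart as the lone activated one, gave 3780 genes at 3 h and 1 member.

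The difference between the lines was tested directly. At 3 and 6 h each line had 1 unactivated library, so the spread came from the groups with 2 libraries. The number of all genes that passed at 3 h moved widely with the method and with the library left out. At 3 h the activation response of DUSP2 was lower in CD47- cells by a log2 difference of -2.49 ± 0.31 (adjusted p = 0.0172), 1 of 6 genes (0.0367% of those tested) that passed as lower. For DUSP5 it was -1.80 ± 0.28 (adjusted p = 0.0578), and 6 of 24 alternatives brought this past the threshold. Without the WT CD3+CD28 library at 3 h the adjusted p for DUSP2 was 0.0897, without the WT CD3+CD28+TSP1 library at 3 h it was 0.0718, and without both CD3+CD28+TSP1 libraries at 3 h it was 0.0554 (log2 difference -2.21). At 1 h the difference was -1.62 ± 0.24 for DUSP2 (adjusted p = 0.117, past the threshold in 4 of 26 alternatives, among them without the library that stands apart, adjusted p = 0.0209) and -0.67 ± 0.22 for DUSP5 (adjusted p = 1.000). At 6 h it was -0.86 ± 0.30 and -0.99 ± 0.32 (adjusted p = 1 for both).

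**Figure D2:**
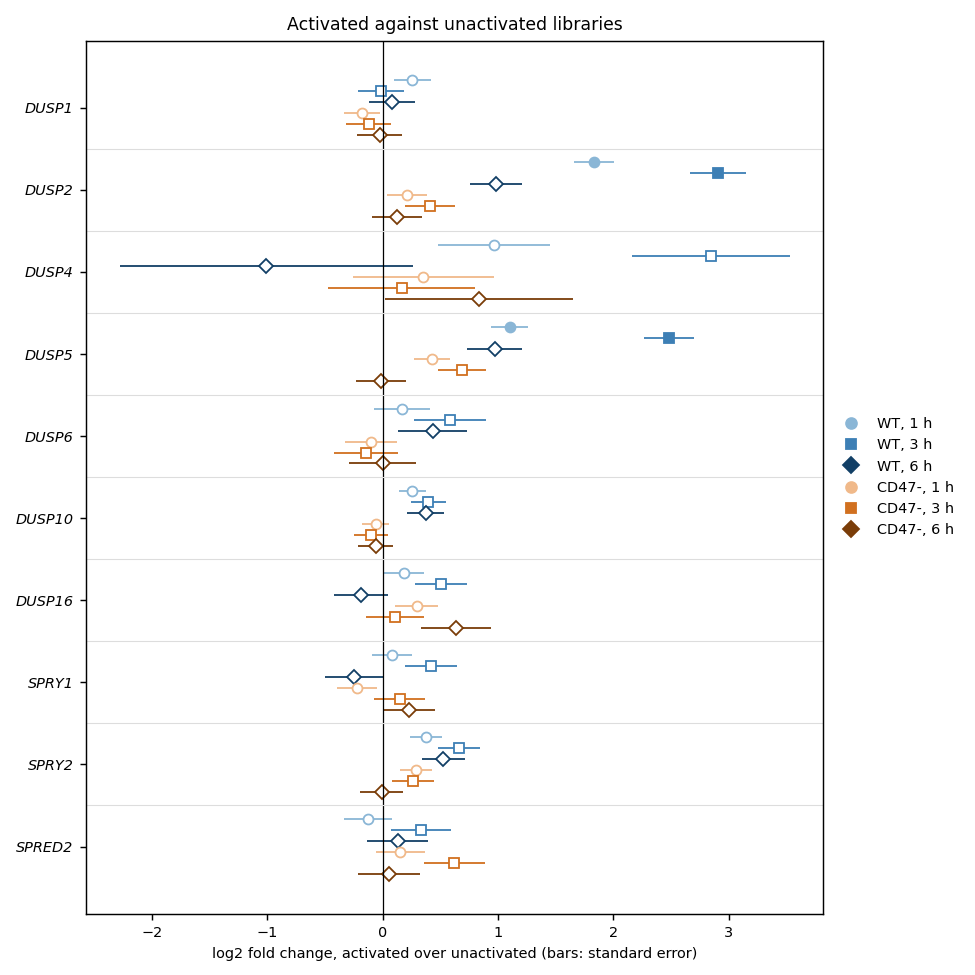
Log2 fold change of activated over unactivated libraries for each member, at 1 h (circles), 3 h (squares) and 6 h (diamonds) in WT (blue) and CD47- (orange) cells. Bars are standard errors of the fit and filled symbols passed an adjusted p of 0.05. DUSP2 and DUSP5 in WT cells at 1 and 3 h are the filled points, with DUSP2 at 2.91 and DUSP5 at 2.48 at 3 h.

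A second fit averaged activation over time by comparing CD3+CD28+TSP1 with TSP1 alone at matched times. In WT cells DUSP2 rose by a log2 fold change of 1.91 ± 0.28 (adjusted p = 0.0184) and DUSP5 by 1.58 ± 0.27 (adjusted p = 0.0470), 2 of the 15 genes (0.0919%) that passed as higher. These calls depended on single libraries and on the design. DUSP2 missed the threshold with no replicate block (2.05, adjusted p = 1) and without both CD3+CD28+TSP1 libraries at 3 h (1.77, adjusted p = 0.0534). Without the WT CD3+CD28+TSP1 library at 1, 3 or 6 h, or the WT TSP1 library at 1 h, neither gene passed, with DUSP2 between 1.74 and 2.05 and an adjusted p of 0.0891 to 0.140. DUSP5 failed in 18 of 27 alternatives, with values between 1.09 and 1.87. In CD47- cells the same comparison called 0% of genes by edgeR (2636 at an unadjusted p under 0.05, and 0 by DESeq2 and by limma voom), with DUSP2 at 0.23 and DUSP5 at 0.38. DUSP2 was at 0.35 without the library that stands apart. The difference between the lines in this fit did not pass for DUSP2 (-1.68 ± 0.38) or DUSP5 (-1.20 ± 0.37, adjusted p = 0.705 for both). DUSP2 passed without the WT TSP1 library at 6 h (-2.15, adjusted p = 0.0318), and without a filter both passed, DUSP2 at an adjusted p of 1.22e-32 and DUSP5 at 9.57e-13. CD3+CD28 against the single untreated library in WT cells gave 1.88 ± 0.43 for DUSP2 and 1.20 ± 0.39 for DUSP5. Neither passed with all libraries, but the number of members that passed changed without a filter and without the library that stands apart.

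TSP1 added to CD3+CD28 changed no member detectably. With edgeR, adding TSP1 to CD3+CD28 called 0% of genes in WT and 0% in CD47- cells, with 366 and 1771 genes at an unadjusted p under 0.05. DESeq2 called 1 and 0 genes, and limma voom called 0 in both. DUSP2 differed by a log2 value of 0.20 ± 0.26 in WT and -0.14 ± 0.27 in CD47- cells. DUSP5 differed by 0.00 ± 0.23 in WT and -0.07 ± 0.25 in CD47- cells. Intervals of 2 SE ran from -0.31 to 0.72 for DUSP2 and from -0.45 to 0.45 for DUSP5 in WT cells, so changes within these bounds were not detectable with these libraries.

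The second question is how the members changed over the culture period. In WT cells 5 members were lower at 3 h than at 1 h and 9 of 10 were lower at 6 h, DUSP6 being the exception. In these bulk samples, fewer cells of a kind and less RNA per cell cannot be told apart. As background, 17.4% of all genes passed as lower at 3 h and 24.8% at 6 h in WT cells, and 20.1% and 27% in CD47- cells. The median log2 change from 1 to 6 h was -1.61 over the members in WT cells and -0.72 in CD47- cells, against 0.00 over all genes in both lines.

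In WT cells DUSP5 fell most among the well-detected members, and in CD47- cells DUSP16 fell most. The 4 WT libraries of DUSP5 at 1 h lay between 52.6 and 128 CPM, and the 3 at 6 h between 5.31 and 12.1 CPM, without overlap. The log2 change was -3.47 ± 0.28 (adjusted p = 2.97e-07) in WT and -1.66 ± 0.26 (adjusted p = 0.000112) in CD47- cells, where DUSP5 lay between 35.9 and 53.6 CPM at 1 h and between 13.5 and 15.3 CPM at 6 h. SPRY1, an inhibitor of growth factor and antigen receptor signaling, was 8.63, 8.36, 8.36 and 9.60 CPM at 1 h in WT cells and 2.28, 1.80 and 2.02 CPM at 6 h. In CD47- cells it was between 7.52 and 10.0 CPM at 1 h and between 4.89 and 5.76 CPM at 6 h. Its log2 change was -2.10 ± 0.18 (adjusted p = 3.95e-07) in WT and -0.67 ± 0.16 (adjusted p = 0.00307) in CD47- cells.

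DUSP2 fell by a log2 change of -1.97 ± 0.27 in WT (adjusted p = 3.92e-05) and -1.07 ± 0.27 in CD47- cells (adjusted p = 0.00392). SPRY2 fell in both lines, from between 15.7 and 22.0 CPM to between 5.31 and 7.78 CPM in WT and from between 9.91 and 13.9 CPM to between 5.98 and 6.72 CPM in CD47- cells. Its log2 change was -1.46 ± 0.13 in WT (adjusted p = 5.66e-07) and -0.90 ± 0.13 in CD47- cells (adjusted p = 4.90e-05). The JNK and p38 phosphatases fell as well. DUSP10 changed by -1.50 ± 0.09 in WT (adjusted p = 1.98e-08) and -0.77 ± 0.09 in CD47- cells (adjusted p = 4.47e-06), and DUSP16 by -1.72 ± 0.17 (adjusted p = 1.49e-06) and -1.94 ± 0.19 (adjusted p = 1.36e-06).

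DUSP1, a phosphatase of p38, JNK and ERK that responds to stress and glucocorticoids, behaved differently in the 2 lines. In WT cells it was 22.8, 26.5, 27.2 and 31.6 CPM at 1 h and 15.5, 17.0 and 15.8 CPM at 6 h. CD47- cells had 39.9, 32.9, 34.3 and 29.9 CPM at 1 h, between 19.3 and 27.1 CPM at 3 h, and 30.7, 29.0 and 31.3 CPM at 6 h. The WT groups did not overlap and the CD47- groups at 1 and 6 h did. The log2 change from 1 to 6 h was -0.82 ± 0.10 in WT (adjusted p = 1.72e-05) and -0.09 ± 0.10 in CD47- cells (adjusted p = 0.503), while at 3 h both lines were lower (-0.79 ± 0.10 and -0.44 ± 0.10).

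SPRED2, which restrains RAS through neurofibromin, fell in WT cells from between 35.8 and 49.1 CPM at 1 h to between 17.8 and 20.1 CPM at 6 h (log2 change -1.01 ± 0.16, adjusted p = 0.000105). In CD47- cells it was between 19.0 and 22.6 CPM at 1 h and between 16.8 and 18.3 CPM at 6 h (-0.24 ± 0.16, adjusted p = 0.216). DUSP4 fell in WT cells from 65 counts in 4 libraries at 1 h to 4 counts in 3 libraries at 6 h, all 3 below the level of 3 counts. The fitted log2 change of -3.90 ± 0.67 (adjusted p = 0.000234) depends on how the fit treats such counts. CD47- cells had 26 counts of DUSP4 at 1 h and 19 at 6 h. DUSP6, the cytoplasmic ERK phosphatase, lay between 2.26 and 2.92 CPM at 1 h and between 1.96 and 3.03 CPM at 6 h in WT cells, and its log2 change was -0.14 ± 0.18 (adjusted p = 0.561).

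At 3 h the members called lower in WT cells were DUSP1, DUSP10, DUSP16, SPRY1 and SPRY2. In CD47- cells they were DUSP1, DUSP2, DUSP10, DUSP16 and SPRY2. SPRY1 in WT cells (-0.46 ± 0.16, adjusted p = 0.0405) lost its call without any 1 of 7 libraries, with values between -0.31 and -0.46, and DUSP2 in CD47- cells (-0.83 ± 0.27, adjusted p = 0.0249) without any 1 of 5, all of them CD47-. Without the library that stands apart DUSP2 was at -0.69 (adjusted p = 0.0852). Without both CD3+CD28+TSP1 libraries at 3 h it was at -0.70 (adjusted p = 0.0744), and SPRY1 in WT cells was at -0.38 (adjusted p = 0.133). SPRY1 in WT cells also missed the threshold with DESeq2 (adjusted p = 0.0510). DUSP16 in WT cells lost its call without the WT TSP1 library at 3 h (adjusted p = 0.0854). SPRY2 in CD47- cells lost its call without the CD47- CD3+CD28 library at 1 h (adjusted p = 0.110) or at 3 h (adjusted p = 0.0599). Of the 16327 genes tested, 2934 passed as higher at 3 h in CD47- cells and 2762 in WT cells. SPRED2 was the only member called higher at 3 h, in CD47- cells, with 22.7 CPM in TSP1, 25.2 CPM in CD3+CD28 and 44.8 CPM in CD3+CD28+TSP1. The highest value is that of the library that stands apart. The log2 change of 0.55 ± 0.16 (adjusted p = 0.0142) became 0.25 (adjusted p = 0.0488) without that library, 0.24 (adjusted p = 0.0692) without both CD3+CD28+TSP1 libraries at 3 h and 0.34 (adjusted p = 0.120) without the CD47- CD3+CD28+TSP1 library at 1 h.

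**Figure D3:**
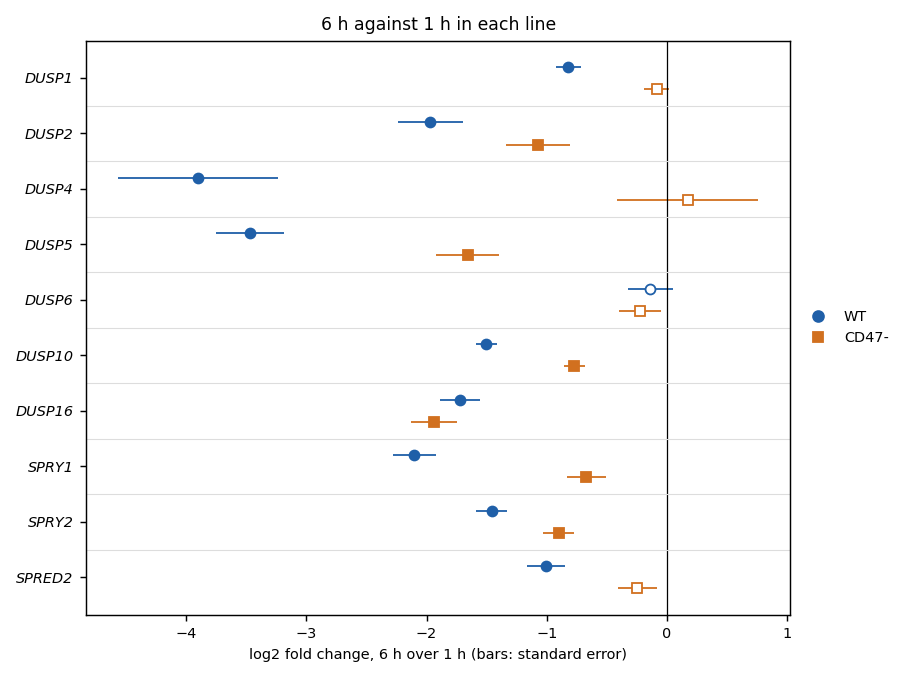
Log2 fold change of 6 h over 1 h for each member in WT (blue circles) and CD47- (orange squares) cells. Bars are standard errors and filled symbols passed an adjusted p of 0.05. All but DUSP6 are filled in WT cells, and DUSP5 lies at -3.47 in WT and at -1.66 in CD47- cells.

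The change from 1 to 6 h was compared between the lines. It differed for 6 of 10 members, each with the more negative change in WT cells, while 6.46% of all genes passed in this direction. The log2 difference was 1.81 ± 0.38 for DUSP5 (adjusted p = 0.00546), 1.43 ± 0.24 for SPRY1 (adjusted p = 0.00136), 0.74 ± 0.15 for DUSP1 (adjusted p = 0.00385) and 0.73 ± 0.12 for DUSP10 (adjusted p = 0.00142). For SPRED2 it was 0.76 ± 0.22 (adjusted p = 0.0323), a call that was lost when any 1 of 9 libraries was left out, with an adjusted p of up to 0.0985 and a difference between 0.57 and 0.82. The value for DUSP4, 4.07 ± 0.92 (adjusted p = 0.00909), rests on the 4 WT counts at 6 h. SPRY2 (0.56 ± 0.18, adjusted p = 0.0505) and DUSP2 (0.90 ± 0.38, adjusted p = 0.123) did not pass. From 1 to 3 h, SPRED2 alone passed (0.94 ± 0.22, adjusted p = 0.0316), against 2.02% of genes that passed in this direction. It was 0.63 (adjusted p = 0.0287) without both CD3+CD28+TSP1 libraries at 3 h, and 0.64 (adjusted p = 0.00939) without the one that stands apart. Its call was lost without any 1 of 7 libraries, among them the WT CD3+CD28+TSP1 library at 3 h (adjusted p up to 0.100, values between 0.73 and 0.99).

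The third question is how the lines differ in the members. Over all 10 libraries per line, DUSP16 and DUSP6 differed most steadily. DUSP16 ranged from 3.03 CPM through a median of 9.12 to 12.9 CPM in WT and from 1.10 through 2.95 to 6.21 CPM in CD47- cells, with the WT library higher in each of the 10 pairs (log2 fold change -1.27 ± 0.32, adjusted p = 0.00262). DUSP6 ranged from 1.77 through 2.49 to 3.03 CPM in WT and from 2.48 through 3.69 to 4.73 CPM in CD47- cells, and it was higher in 10 of 10 pairs (0.60 ± 0.13, adjusted p = 0.000617). A long noncoding RNA gene on the opposite strand, ENSG00000274021, overlaps 28.6% of the exonic bases of DUSP6. Its own level averaged 0.0478 CPM in WT libraries and 0.0214 CPM in CD47- libraries, both below the level of 3 counts, and its part in the DUSP6 difference was not tested. DUSP1 was higher in CD47- cells in 9 of 10 pairs (0.54 ± 0.15, adjusted p = 0.00476). DUSP1 lost its call among the 4 unactivated pairs (0.69, adjusted p = 0.0522) and among the 6 activated pairs (0.48, adjusted p = 0.0987), DUSP16 among the 4 unactivated (-1.26, adjusted p = 0.100) and DUSP6 among the 6 activated (0.46, adjusted p = 0.0668), with the direction kept.

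DUSP2 and DUSP5 were lower in CD47- cells over all libraries by a log2 fold change of -1.08 ± 0.39 (adjusted p = 0.0312) and -1.35 ± 0.52 (adjusted p = 0.0432). Both were lower in 7 of 10 pairs. In the 4 unactivated pairs alone DUSP2 was 0.23 ± 0.39 higher (adjusted p = 0.750) and DUSP5 was at -0.39 (adjusted p = 0.716). With a replicate block for the 10 matched pairs, DUSP2 kept its call (-0.70 ± 0.28, adjusted p = 0.0435) and DUSP5 lost it (-0.74 ± 0.33, adjusted p = 0.0743). Leaving out any 1 of 9 libraries for DUSP2 or 11 for DUSP5 also ended the call, with log2 fold changes between -0.89 and -1.03 and between -1.08 and -1.39. With limma voom DUSP2 was at -0.64 (adjusted p = 0.207) and DUSP5 at -0.65 (adjusted p = 0.416). Without the library that stands apart they were at -1.02 (adjusted p = 0.0544) and -1.32 (adjusted p = 0.0633), and without both CD3+CD28+TSP1 libraries at 3 h at -0.90 (adjusted p = 0.0948) and -1.09 (adjusted p = 0.125). In all, 5 members passed in this comparison, against 40.4% of all genes. With the replicate block 7 passed, a count not set against a background, since the 40.4% belongs to the fit without the block. DUSP10 (0.32 ± 0.11, adjusted p = 0.0224), SPRED2 (-0.44 ± 0.15, adjusted p = 0.0235) and SPRY2 (-0.40 ± 0.10, adjusted p = 0.00290) were gained.

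At each time point separately, the lines were compared with activated and unactivated libraries weighted equally. Of all genes, 45.9% passed at 1 h, 38.1% passed at 3 h and 41.3% passed at 6 h, so the 8, 7 and 6 members that passed are read against a large background. DUSP5 changed sides. It was lower in CD47- cells by -0.84 ± 0.11 at 1 h (adjusted p = 4.15e-05) and -1.62 ± 0.14 at 3 h (adjusted p = 1.49e-06), and higher by 0.96 ± 0.16 at 6 h (adjusted p = 0.000307). At 6 h its 3 WT libraries lay between 5.31 and 12.1 CPM and its 3 CD47- libraries between 13.5 and 15.3 CPM, without overlap. All 3 calls passed under each of the 24 to 26 alternatives. Those at 3 and 6 h could not leave out the single unactivated library of either line. DUSP2 was lower by -0.69 ± 0.12 at 1 h (adjusted p = 0.000376) and -0.85 ± 0.15 at 3 h (adjusted p = 0.000640), and 0.01 ± 0.15 apart at 6 h (adjusted p = 0.978). Its activated means were lower in CD47- than in WT cells, at 106 against 301 CPM at 1 h and 60.5 against 260 CPM at 3 h. The unactivated levels were not lower, with means of 91.5 against 84.4 CPM at 1 h and single libraries of 45.6 against 34.7 CPM at 3 h.

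DUSP16 was lower in CD47- cells at each time, by -1.17 to -1.46, and DUSP1 was higher at each time, by 0.34 ± 0.11 at 1 h (adjusted p = 0.0230), 0.56 ± 0.14 at 3 h (adjusted p = 0.00709) and 0.94 ± 0.14 at 6 h (adjusted p = 0.000132). The DUSP1 call at 1 h was lost without the untreated or the CD3+CD28 library of either line at 1 h (adjusted p between 0.0815 and 0.0927). SPRY1 did not pass at 1 h (0.04 ± 0.12) or 3 h (0.16 ± 0.16) and was higher at 6 h (1.34 ± 0.17, adjusted p = 3.42e-05), with 1.80 to 2.28 CPM in WT and 4.89 to 5.76 CPM in CD47- cells. DUSP10 was 0.08 ± 0.08 apart at 1 h (adjusted p = 0.462) and higher by 0.82 ± 0.11 at 6 h (adjusted p = 4.83e-05). Its call at 3 h (0.31 ± 0.11, adjusted p = 0.0313) was lost without the CD3+CD28 library at 3 h of CD47- (adjusted p = 0.0516) or WT cells (adjusted p = 0.0967), with DESeq2 (adjusted p = 0.0684), with limma voom (adjusted p = 0.100) and without a filter (adjusted p = 0.155).

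SPRED2 passed at 1 h only, with -1.03 ± 0.15 (adjusted p = 8.87e-05), with 35.8 to 49.1 CPM in WT and 19.0 to 22.6 CPM in CD47- cells. The 3 h value was 0.02 ± 0.18, and that at 6 h was -0.12 ± 0.19. At 3 h the CD47- library was higher in the CD3+CD28+TSP1 pair only (44.8 against 31.4 CPM), which holds the library that stands apart. The CD47- level was lower with CD3+CD28 (25.2 against 31.1 CPM) and with TSP1 alone (22.7 against 24.8 CPM). The 3 h value without the library that stands apart is not given here. SPRY2 was lower by -0.60 ± 0.10 at 1 h (adjusted p = 0.000236) and by -0.34 ± 0.13 at 3 h (adjusted p = 0.0477), a value that failed in 19 of 24 alternatives, with a 6 h value of 0.00 ± 0.13. DUSP6 was higher at 1 h (0.54 ± 0.17, adjusted p = 0.0165) and 3 h (1.05 ± 0.21, adjusted p = 0.00131), while the 6 h value was 0.42 ± 0.21 (adjusted p = 0.128). Its 1 h call was lost without any 1 of 4 libraries taken at 1 h (CD47- untreated, CD47- CD3+CD28, WT untreated, WT CD3+CD28+TSP1), with an adjusted p of up to 0.0671. DUSP4 was lower at 1 h (-1.49 ± 0.39, adjusted p = 0.00634) and higher at 6 h (2.01 ± 0.73, adjusted p = 0.0402), the latter from 4 WT and 19 CD47- counts and lost without the WT CD3+CD28 library at 6 h (1.67, adjusted p = 0.0803), the WT CD3+CD28 library at 3 h (2.01, adjusted p = 0.0503) or the CD47- CD3+CD28 library at 6 h (1.70, adjusted p = 0.102). The 6 h call of DUSP4 was also lost with DESeq2 (2.16, adjusted p = 0.0795), without a filter (2.02, adjusted p = 0.0597) and with limma voom (1.31, adjusted p = 0.127).

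**Figure D4:**
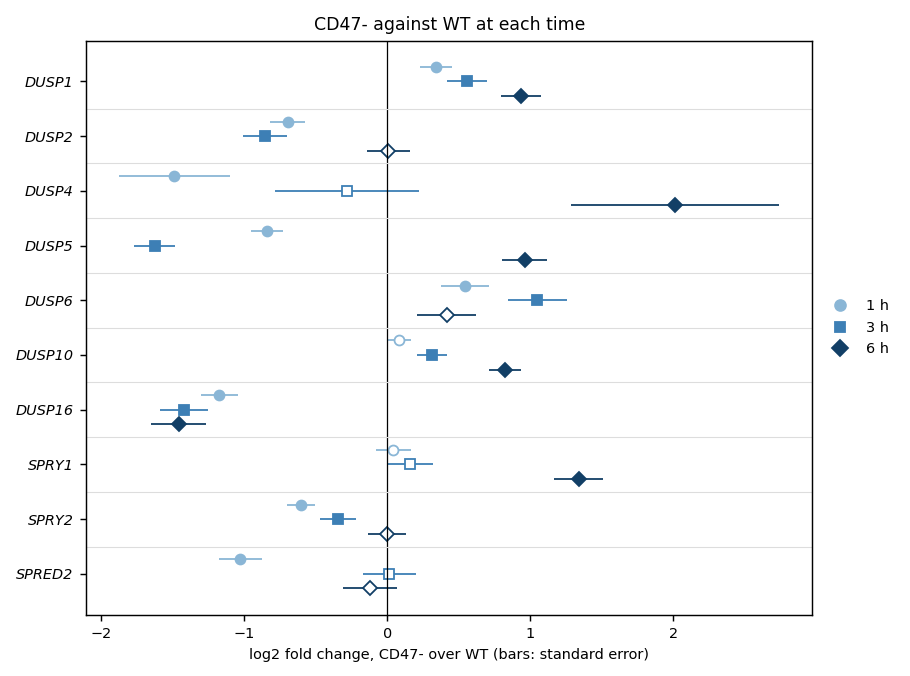
Log2 fold change of CD47- over WT cells for each member at 1, 3 and 6 h, from the lightest to the darkest blue. Bars are standard errors and filled symbols passed an adjusted p of 0.05. DUSP5 moves from -0.84 and -1.62 to 0.96, and SPRY1 from 0.04 and 0.16 to 1.34.

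Isoform counts showed which transcripts carry these levels. DUSP1 had a single annotated isoform, and the main protein-coding isoform took 99.9% of DUSP5, 95.7% of DUSP2, 95.6% of SPRED2, 91.4% of DUSP4, 90.0% of DUSP16, 88.0% of DUSP10, 85.8% of DUSP6 and 84.7% of SPRY2 on average over the 20 libraries. The main SPRY1 isoform took 61.4%, with shares from 0 to 91.2% in single libraries. In the line comparison 15.1% of the 55450 isoforms tested passed. Among members these were the main isoforms of DUSP1 (0.57 ± 0.14, adjusted p = 0.00805), DUSP6 (0.67 ± 0.17, adjusted p = 0.00751) and DUSP16 (-1.35 ± 0.33, adjusted p = 0.00664), and the minor DUSP2 isoform ENST00000488952.1 (-1.33 ± 0.31, adjusted p = 0.00473). The main isoforms of DUSP2 (-1.06 ± 0.40, adjusted p = 0.0867) and DUSP5 (-1.34 ± 0.54, adjusted p = 0.102) were also lower in CD47- cells but did not pass. SPRY2 was the one member that met the minimums set for a test of shares, a second isoform above 10% and a summed count of at least 100 in every library. Its main isoform took 85.3 ± 4.24% in WT and 84.1 ± 4.88% in CD47- cells (SD, n = 10), with an exact sign-flip permutation p of 0.459 over 10 pairs (two-sided).

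Other genes of the pathway set these values in context. Of 13 immediate-early genes used as readouts of ERK, 11 could be tested. All 11 were lower at 6 h than at 1 h in WT cells (median log2 change -1.89), against 24.8% of all genes. In CD47- cells 7 were lower (median -0.96), against 27% of all genes. The change from 1 to 6 h differed between the lines for 7 of the 11, with the more negative change in WT cells each time. Of all genes 6.46% passed in this direction. The log2 change in WT cells was -4.07 ± 0.17 for FOSB, -3.27 ± 0.18 for FOS and -5.02 ± 0.33 for EGR3. In CD47- cells it was -3.75 ± 0.31 for EGR1, -3.88 ± 0.38 for EGR2 and -2.93 ± 0.34 for EGR3. Activation at 3 h raised 5 of the 11 in WT cells (median 1.61), where 0.361% of all genes were higher, and 0 passed in CD47- cells (median 0.51). The difference between the lines at 3 h passed for 1 of the 11, which is read against the share of all genes given above for that comparison. In WT cells 1 of 11 passed at 1 h, against 0.0429% of all genes, and 0 at 6 h. Between the lines 4 of 11 differed, a share below the 40.4% of all genes, with IER5 higher in CD47- cells (1.10 ± 0.10) and ETV5 (-0.75 ± 0.17) and FOSB (-1.65 ± 0.55) lower.

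The remaining Sprouty and SPRED genes did not move as 1 group. SPRY4 fell from 1 to 6 h, with a log2 change of -3.49 ± 0.21 in WT and -1.29 ± 0.21 in CD47- cells, and it rose with activation at 3 h in WT cells (1.76 ± 0.30, adjusted p = 0.0187). SPRY3 rose from 1 to 6 h in both lines (2.09 ± 0.32 in WT and 1.27 ± 0.32 in CD47- cells), SPRED3 fell in WT cells (-1.79 ± 0.33), and SPRED1 rose in both lines (0.42 ± 0.09 in WT and 0.80 ± 0.09 in CD47- cells). SPRED1 was lower in CD47- than in WT cells over all libraries (-0.79 ± 0.19, adjusted p = 0.00153), as was SPRY4 (-1.21 ± 0.48, adjusted p = 0.0496). Of 14 other DUSP genes 10 were tested, and 2 were lower and 0 higher at 6 h in WT cells (DUSP8, -0.97 ± 0.38, and DUSP22, -0.29 ± 0.08). In CD47- cells 3 were lower, among them DUSP22 and DUSP18, and 2 were higher, among them DUSP7 (0.92 ± 0.10). Between the lines 3 were higher and 3 lower in CD47- cells. Over all genes 24.8% were lower and 25.7% higher at 6 h in WT cells, and 27% and 26% in CD47- cells. In the line comparison 20.6% of all genes were lower in CD47- cells and 19.8% higher. These counts of 10 are therefore not read as a result about the other DUSP genes. DUSP19 stood out, from 0 to 0.251 CPM in WT and from 1.28 to 3.30 CPM in CD47- cells (log2 fold change 4.35 ± 0.37, adjusted p = 1.95e-09), with DUSP3 at 0.37 ± 0.07 and DUSP12 at 0.35 ± 0.08.

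For the kinases themselves no activation call was made. None of the 21 genes of the RAS to ERK cascade and none of the 13 of the JNK and p38 cascades passed for activation at 1, 3 or 6 h by edgeR, with medians between -0.10 and 0.09. Over all 16327 genes, activation called 7, 68 and 0 in WT cells at 1, 3 and 6 h, and 0 in CD47- cells at each time. The absence of calls is therefore not read as a result about the kinases. From 1 to 6 h, 7 cascade genes from RAS to ERK were lower and 6 higher in WT cells (median 0.01), and 11 were lower and 4 higher in CD47- cells (median -0.26). Over all genes 24.8% were lower and 25.7% higher in WT cells, and 27% and 26% in CD47- cells, so the counts of 21 in WT cells lie near the background. RASA3 (-1.22 ± 0.09), RASA2 (-0.73 ± 0.07) and MAPK3, which encodes ERK1 (-0.94 ± 0.11), led in WT cells, and RASGRP1, the RAS activator downstream of the T cell receptor (-1.34 ± 0.09), SOS2 (-0.94 ± 0.08) and RASA2 (-0.81 ± 0.07) in CD47- cells. Between the lines, where 20.6% of all genes were lower in CD47- cells and 19.8% higher, 6 were lower in CD47- cells, among them RPS6KA3 (-0.90 ± 0.08) and ARAF (-0.72 ± 0.09), and 1 was higher. For JNK and p38, 6 were lower in CD47- cells, led by MAP3K5 (-1.27 ± 0.13), MAP2K6 (-1.58 ± 0.22) and MAP2K4 (-0.42 ± 0.06), and 4 were higher. From 1 to 6 h 4 rose and 4 fell in WT cells, with MAP3K5 at 0.61 ± 0.08, MAP2K6 at 0.79 ± 0.14 and MAPK11 at -0.80 ± 0.13. In CD47- cells 4 rose and 5 fell, with MAP3K5 at 0.66 ± 0.08, MAP2K6 at 1.19 ± 0.16 and MAP3K1 at -0.56 ± 0.07.

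Finally, the genes whose pattern was most like each member were listed by Pearson correlation of log2 CPM over the 20 libraries after the mean of each line was removed. These values are descriptive, since all libraries share the effects of time and depth. DUSP2 was closest to LAX1 (0.93), NFKBID (0.92) and GEM (0.92), and DUSP5 to BCL6 (0.97), GLIPR1 (0.97) and GEM (0.96). SPRY2 was closest to EGR3 (0.97), EGR2 (0.97) and NR4A1 (0.96), all immediate-early transcription factors. DUSP10 was closest to PPP1R15A (0.98), GCC1 (0.97) and RABGEF1 (0.97), and DUSP16 to TPM2 (0.98), CSGALNACT2 (0.97) and FRMD6 (0.97). SPRY1 was closest to TM6SF1 (0.97), BHLHE40 (0.96) and SEPTIN4 (0.96), DUSP4 was close to CDKN1A (0.92) and PTPRE (0.90), and DUSP1 was closest to NIPSNAP1 (0.93), HSPA6 (0.92) and PCCB (0.92). SPRED2 was closest to AC239809.3 (0.93), IQCN (0.92) and AC008895.1 (0.91). DUSP6 had no close match, with PMFBP1 (0.72) and TRMT10B (0.72) leading. Among members, SPRY2 and DUSP10 were most alike (0.95), followed by SPRY1 and DUSP10 (0.92), and DUSP1 and DUSP6 least (0.00).

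The members lie on 8 chromosomes in GRCh38 (GENCODE 44). DUSP2 spans chr2:96143169-96145440 and SPRED2 chr2:65310851-65432637, both on the minus strand, as are DUSP10 at chr1:221701424-221742089, DUSP1 at chr5:172768096-172771195, DUSP4 at chr8:29333064-29350684, DUSP16 at chr12:12473282-12562863, DUSP6 at chr12:89347235-89352501 and SPRY2 at chr13:80335976-80341126. DUSP5 at chr10:110497907-110511533 and SPRY1 at chr4:123396795-123403760 are on the plus strand. Besides DUSP6, no member shares exonic bases with another annotated gene.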

How the data were processed

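RNA-seq was analysed for 20 libraries, 10 WT Jurkat and 10 CD47- JinB8. Per the study's methods and the labels, reads were trimmed with Cutadapt 1.18, aligned to GRCh38 with STAR 2.4.2a and quantified with RSEM 1.3.3 on a GENCODE annotation. The values deposited by the authors are RSEM expected counts per gene and per isoform, not normalized. The strand setting is not given in the sources used here, so reads of overlapping genes on opposite strands cannot be told apart. Among the value columns of each file, 2 matched no sample given here and were not used.

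Expected counts were rounded to whole numbers and filtered with filterByExpr (minimum count 10, minimum total count 15). They were scaled by TMM and tested with the quasi-likelihood test of edgeR 4.0.16 in R 4.3.3, with Benjamini-Hochberg adjustment over all genes tested and a threshold of 0.05. Designs fitted were the lines alone, line and treatment with a time term for each line, and a mean for each line, activation state and time. CPM values use TMM-scaled totals, and the likeness of patterns used a prior count of 2. Scripts were tested on simulated data.

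Deviations from the line means correlated within each of the 10 pairs matched for treatment and time (r from 0.12 to 0.488). Only 1 of 10 WT libraries correlated best with its own partner, so these values do not single out the matched partners. Pairing comes from the labels' treatment and time, and the blocked fit is given beside the line comparison where it ended or added a call. Alternatives were DESeq2 1.42.0, limma 3.58.1 (voom), other filters and scalings, subsets of pairs, and each library left out. All members were named, with CD47. In each pathway list, at most 3 genes per comparison were named by smallest p, between the lines and for 6 h against 1 h in each line, as were the 3 genes most like each member. A few genes that this rule names are not reported here. SPRY4 with activation was added after its values were seen. Members and lists were chosen with earlier results of these data known.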

Additional observations from a re-analysis of the deposited data

Results flagged for a closer look

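A pair of single values stood apart within their groups by Dixon's criterion. SPRED2 in CD47- cells reached 44.8 CPM in the CD3+CD28+TSP1 library at 3 h, against 25.2 CPM in the next highest of the 10 libraries. DUSP10 in CD47- cells at 1 h was 20.3 CPM untreated, against 19.0 CPM in the next highest of the 4 libraries. These are 2 of 40 groups checked, and chance flags about 1 in 20.

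Effects that differed between the lines by an interaction term in edgeR were the response of DUSP2 to activation at 3 h (log2 difference -2.49, CD47- minus WT) and the change of SPRED2 from 1 to 3 h (0.94). The change from 1 to 6 h differed for DUSP1 (0.74), DUSP10 (0.73), DUSP4 (4.07), DUSP5 (1.81), SPRED2 (0.76) and SPRY1 (1.43). Without both CD3+CD28+TSP1 libraries at 3 h, the SPRED2 differences were 0.63 from 1 to 3 h and 0.77 from 1 to 6 h.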

How the results depend on the processing

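Single member values were followed only where they passed with all libraries, and for most activation comparisons of DUSP2 and DUSP5. Of these, 1501 of 1618 values with a library left out and 538 of 585 under other settings kept their direction and their side of the threshold. Other uncalled values were not followed, so turns of direction among them are not listed. Values whose direction turned were DUSP2 between the lines in the 4 unactivated pairs (0.23), DUSP5 with activation at 6 h in CD47- cells without the CD47- CD3+CD28 library at 6 h (-0.0157 with all libraries, -0.110 to 0.0719 with a library left out), and the SPRY2 isoform share without the pairs at 6 h (0.319 points, from -1.24). Counts of members called also moved. Between the lines the count was 5, and it was 3 with limma voom, 1 in the 4 unactivated pairs, 2 in the 6 activated pairs, 9 with a shared time term and 7 with the replicate block, and 3 to 7 with a library left out. For activation in WT cells over time it was 2, then 1 with a minimum of 1 CPM or upper-quartile factors, 0 with no replicate block, and 0 to 2 with a library left out. Leaving out both CD3+CD28+TSP1 libraries at 3 h, a choice made after seeing the data, gave 0 there, 0 for the line difference in activation at 3 h (from 1) and 1 for CD3+CD28 against untreated in WT cells (from 0). That line difference was 2 with DESeq2, limma voom or no filter and 0 to 2 with a library left out. Without a filter the count rose from 0 to 1 for activation in CD47- cells at 3 h and for the line difference in activation at 1 h (1 also with DESeq2), to 2 for activation at 6 h in WT cells (1 with DESeq2), for its line difference, for CD3+CD28+TSP1 over TSP1 in CD47- cells and its line difference, and for CD3+CD28 over untreated in WT cells. It rose from 5 to 8 for 3 h in WT cells and from 1 to 2 for its line difference (2 also with a mean per time, 0 to 2 with a library left out). With a library left out the count ran from 1 to 2 for activation in WT cells at 1 h, and from 0 to 1 for its line difference, for activation in CD47- cells at 3 h, for the line difference of CD3+CD28+TSP1 over TSP1 and for CD3+CD28 over untreated in WT cells. The causes were not tested. Low counts limit DUSP4 in all comparisons.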
